A study of Mus musculus with 16 samples.

Results

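Interferon regulatory factors (IRFs) and signal transducers and activators of transcription (STATs) are 2 families of transcription factors, and 9 of their genes were followed here: Irf1, Irf2, Irf3, Irf5, Irf7, Irf8, Irf9, Stat2 and Stat3. Members were taken by symbol, which gave 9 of the 55450 gene rows of the study's expression tables, 1 row per member. RNA had been sequenced from cultured primary articular chondrocytes of the mouse, which make and maintain joint cartilage, in 4 groups of 4 libraries each. The values are FPKM (fragments per kilobase of gene length, scaled to the library's mapped fragments), so levels are compared between genes per length.

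All groups were kept in medium with 10% serum at 3% oxygen. The bleomycin group received 4 U/mL hyaluronidase for 4 h without serum, then 50 µg/mL of the DNA-cleaving drug bleomycin for 24 h, and then fresh medium for 5 days. The doxorubicin group received 50 nM of doxorubicin, a topoisomerase II poison, for 5 days, with fresh medium every 48 h. The interleukin-1 beta (IL-1β) group received 1 ng/mL of this inflammatory cytokine for 24 h, and the PBS named beside it for the vehicle was given for 24 h as well. The drugs were used as inducers of senescence and IL-1β as an acute stress control. The labels do not say when the vehicle was harvested, whether it saw hyaluronidase, or whether the 4 libraries of a group came from separate animals or cultures, so p-values measure only the spread between these libraries, which may be technical.

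Type I interferons signal through the kinases Jak1 and Tyk2, which phosphorylate Stat2. Stat2 and Irf9 are subunits of ISGF3, the complex that binds the interferon-stimulated response element (ISRE) in antiviral genes, and the genes of ISGF3 subunits and of Irf7 are themselves known interferon targets. Irf3 is made constitutively and Irf7 on demand, and both are activated by kinases downstream of nucleic acid sensors to switch on interferon genes. Irf1 is induced by interferon gamma through a gamma-activated site (GAS) and by inflammatory cytokines through NF-kB, Irf2 binds the same elements as Irf1 and can oppose it, Irf5 and Irf8 are best known from myeloid and lymphoid cells, and Stat3 carries the signal of interleukin-6 family cytokines from the receptor gp130.

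The promoter windows of 4 members are shown because they hold, or lack, the elements that these factors and NF-kB bind. Each covers 250 bases before to 50 bases after a transcription start in RefSeq, build GRCm38.p6, read 5′ to 3′ on the gene's strand. Capitals mark matches, on either strand, to the ISRE core GAAANNGAAA, to the GAS palindrome TTCNNNGAA or to the NF-kB consensus. The windows lie at chr11:53769764-53770063 on the plus strand (Irf1, the first of 2 starts), chr8:46739495-46739794 on the plus strand (Irf2), chr10:128270248-128270547 on the plus strand (Stat2) and chr7:141266375-141266674 on the minus strand (Irf7).
Irf1: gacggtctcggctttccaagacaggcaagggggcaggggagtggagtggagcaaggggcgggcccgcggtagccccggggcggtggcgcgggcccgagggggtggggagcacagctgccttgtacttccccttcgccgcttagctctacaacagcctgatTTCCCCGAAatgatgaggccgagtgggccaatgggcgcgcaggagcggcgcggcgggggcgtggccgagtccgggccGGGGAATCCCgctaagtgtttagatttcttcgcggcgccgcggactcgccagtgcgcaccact
Irf2: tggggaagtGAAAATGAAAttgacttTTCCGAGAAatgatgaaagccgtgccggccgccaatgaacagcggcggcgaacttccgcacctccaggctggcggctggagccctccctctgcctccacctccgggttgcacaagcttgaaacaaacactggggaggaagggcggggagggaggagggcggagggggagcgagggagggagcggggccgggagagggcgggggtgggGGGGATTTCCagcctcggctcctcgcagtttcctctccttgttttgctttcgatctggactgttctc
Stat2: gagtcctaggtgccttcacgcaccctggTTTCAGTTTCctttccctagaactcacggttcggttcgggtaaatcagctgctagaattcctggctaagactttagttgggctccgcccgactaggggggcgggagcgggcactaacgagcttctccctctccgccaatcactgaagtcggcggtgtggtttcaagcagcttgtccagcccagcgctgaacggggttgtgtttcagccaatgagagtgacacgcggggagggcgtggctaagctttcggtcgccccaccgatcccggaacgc
Irf7: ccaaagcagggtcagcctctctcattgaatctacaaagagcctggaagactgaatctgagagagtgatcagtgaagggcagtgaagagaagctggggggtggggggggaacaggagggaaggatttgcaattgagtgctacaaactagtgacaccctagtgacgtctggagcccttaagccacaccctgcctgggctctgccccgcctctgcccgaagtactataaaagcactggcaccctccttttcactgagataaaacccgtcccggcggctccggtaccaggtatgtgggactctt

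In the Irf1 window the capitals mark a GAS match that begins at position -90 and an NF-kB match at -13, counted in bases from the transcription start. In the Irf2 window they mark an ISRE core at -241, a GAS match at -224 and an NF-kB match at -17. The Stat2 window holds an ISRE core on the reverse strand at -222, read here as TTTCAGTTTC. The Irf7 window holds none of these letters, which says nothing about sites outside it or of other spelling.

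All 9 members matched the table, with 12 windows between them. Besides those printed, Irf8 had GAS matches at -171 and -153 from the first of its 2 starts. No match was found in the windows of Irf3, Irf5, Irf9 (2 starts) and Stat3, in the second Irf1 window or in the second Irf8 window. Of all 32851 windows in the table, 3.44% held the ISRE core, 8.30% the GAS palindrome and 4.51% the NF-kB consensus. Among 26 windows of the type I interferon target genes described further on (24 of 35 listed genes had a window), 13 held the ISRE core. The matches are descriptions of letters, not shown binding sites.

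**Figure D1:**
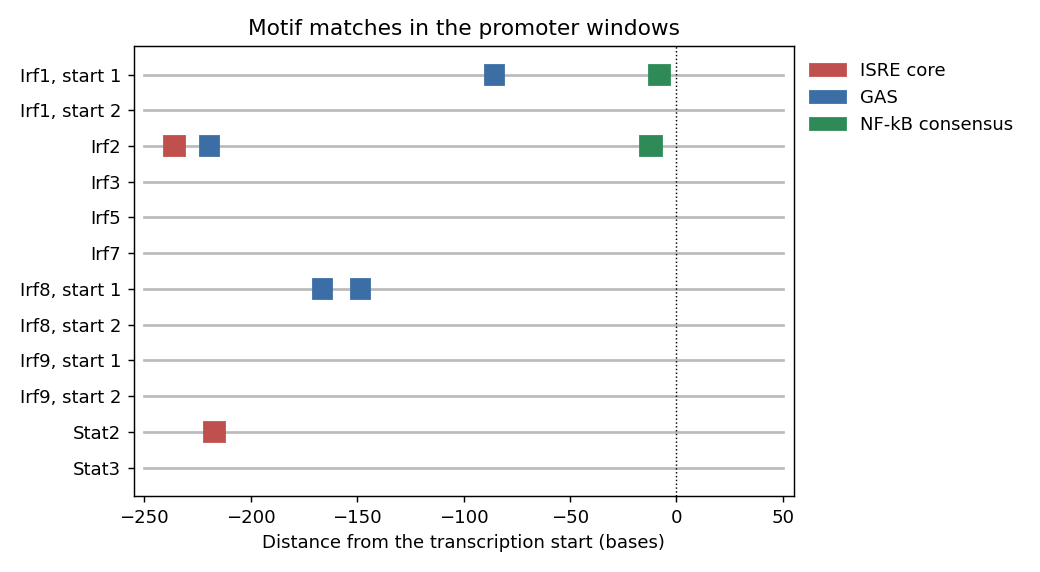
Matches to 3 motifs in the 12 promoter windows of the 9 members; the x axis is the distance in bases from the transcription start (dotted line), each grey line is a window and each box a match. Irf1, Irf2, Irf8 and Stat2 have a window with a match, and the windows of the other members have none.

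Chondrocyte markers were read first: all 12 reached 1 FPKM, with a summed level of 12854 to 17104 FPKM in vehicle, 9769 to 13067 in the drug groups and 5640 to 6044 in IL-1β. By the test described below, 7 of the 12 were called lower than in vehicle with each drug and 11 with IL-1β. Those called higher were 2 with bleomycin, 1 with doxorubicin and 1 with IL-1β. Estimated depth was 15.9 to 22.2 M fragments (M, mega) per library. FPKM summed to 405159 to 423830 in the vehicle and drug libraries and to 521294 to 559190 in the IL-1β libraries, where the acute-phase gene Saa3 alone made up 12% to 14.4% of the sum. Scaling each library to the same sum moves the median log2 difference of all tested genes between IL-1β and vehicle from 0.03 to -0.31, and it is given below where it changes a member's call or direction. In bulk RNA a change in the number of cells that express a gene and a change in RNA per cell cannot be told apart.

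Irf7, Irf9 and Stat2 rose 3.07-fold to 17.9-fold with bleomycin and 3.78-fold to 23.7-fold with doxorubicin. Their drug libraries did not overlap vehicle, which adds nothing to the calls, since the share of all tested genes without overlap was not computed. IL-1β raised Irf1 1.55-fold, its lowest adjusted p among the members, and Irf7 by a smaller step than either drug, and neither Irf9 nor Stat2 passed the test there. Irf3 and Stat3, the most abundant members, passed in none of the 6 comparisons on the deposited scale. Tests were made with limma on log2(FPKM + 1), two-sided, with Benjamini-Hochberg adjustment over all 12976 tested genes and a call at an adjusted p under 0.05.

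Of the 9 members, 8 passed the expression filter of 1 FPKM in at least 4 of 16 libraries. Irf8 did not pass. Irf7 reached 1 FPKM in treated libraries only, and Irf5 only in some bleomycin and IL-1β libraries, so the members that passed are not a neutral sample. With bleomycin 5 of the 8 were called higher and 0 lower, where 27.9% of all tested genes were called higher and 19.0% lower. With doxorubicin 6 were called higher and 0 lower, against 25.4% and 22.8% of all tested genes. With IL-1β 4 were called higher and 0 lower, against 24.5% and 18.4%. The median log2 difference of the 8 was 0.48, 0.42 and 0.35 in these comparisons, beside 0.06, 0.02 and 0.03 over all tested genes. The 3 comparisons share the vehicle libraries.

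**Figure D2:**
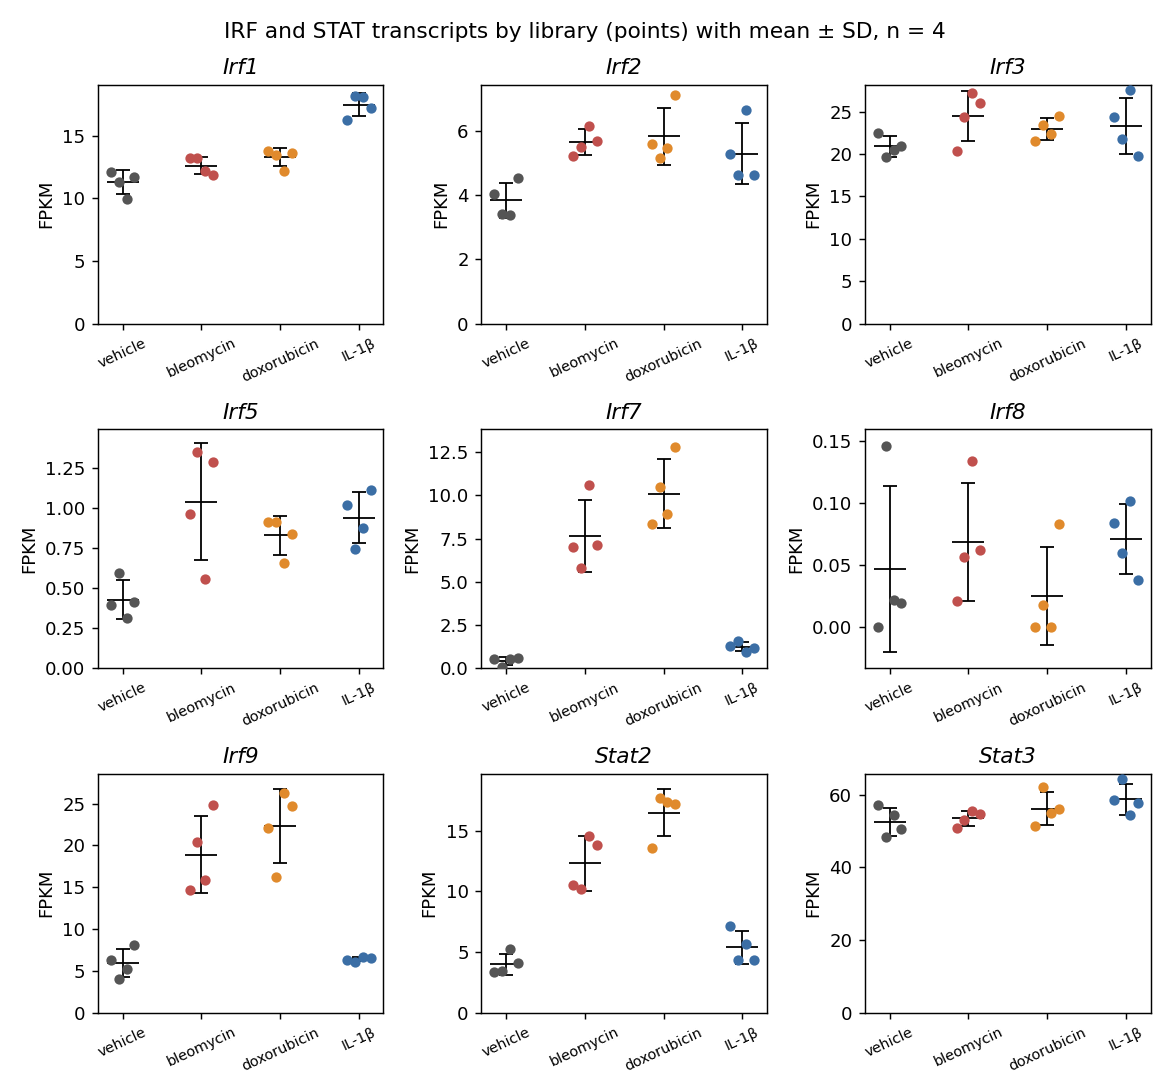
FPKM of the 9 members in each of 16 libraries (points, coloured by group) with the mean ± SD of 4 libraries; each panel has its own scale. Irf7, Irf9 and Stat2 stand apart in the 2 drug groups, Irf1 is highest with IL-1β, and Irf8 stays at or under 0.146 FPKM.

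Irf7, the inducible activator of interferon alpha genes (chr7:141262706-141266481, minus strand, GRCm38), was close to silent in vehicle, at 0.521, 0.0679, 0.517 and 0.604 FPKM in replicates 1 to 4. It measured 7.02, 5.78, 10.6 and 7.11 FPKM with bleomycin and 8.35, 10.5, 8.94 and 12.8 FPKM with doxorubicin. The IL-1β libraries gave 1.29, 1.57, 0.959 and 1.14 FPKM. Every drug library lay above every IL-1β library, and every IL-1β library above every vehicle library.

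Mean Irf7 was thus 0.427 ± 0.243 FPKM in vehicle, 7.64 ± 2.09 with bleomycin, 10.1 ± 1.99 with doxorubicin and 1.24 ± 0.259 with IL-1β (SD, n = 4 each). On the log2(FPKM + 1) scale, which understates the change of a gene this low, the difference from vehicle was 2.59 ± 0.17 (SE; adjusted p = 8.08e-09, limma) with bleomycin and 2.97 ± 0.17 (adjusted p = 1.08e-09) with doxorubicin. With IL-1β it was 0.66 ± 0.17 (adjusted p = 0.00471), a 2.90-fold ratio of means. The vehicle level rests on few fragments, an estimated 4 to 41 per library against 410 to 638 with bleomycin and 587 to 823 with doxorubicin. Without vehicle replicate 2, the lowest, the ratios of means were 14.0, 18.5 and 2.27.

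Irf9, the DNA-binding subunit of ISGF3 (chr14:55603571-55610030, plus strand), was present in every library. Vehicle gave 6.25, 4.06, 5.24 and 8.05 FPKM, bleomycin 14.7, 20.4, 15.9 and 24.8, doxorubicin 22.1, 16.2, 26.3 and 24.7, and IL-1β 6.31, 6.06, 6.63 and 6.58. The drug libraries all lay above the others, while the IL-1β libraries fell inside the vehicle range.

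The Irf9 mean rose from 5.90 ± 1.69 FPKM in vehicle to 18.9 ± 4.60 with bleomycin, 3.21-fold (log2 difference 1.54 ± 0.18 SE; adjusted p = 4.3e-06, limma). With doxorubicin it rose to 22.3 ± 4.43, 3.78-fold (1.77 ± 0.18; adjusted p = 7.15e-07). With IL-1β it was 6.39 ± 0.267, a log2 difference of 0.13 with a 95% interval of -0.25 to 0.52 (adjusted p = 0.592), which turns to -0.20 when libraries are scaled to a common sum. The Irf9 gene shares 123 exonic bases on the same strand with Rnf31, a ubiquitin ligase subunit gene of at most 6.42 FPKM, and how the authors assigned shared reads is not given in the sources used here.

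Stat2, the interferon-specific STAT of ISGF3 (chr10:128270559-128292849, plus strand), measured 3.31, 3.43, 5.21 and 4.05 FPKM in vehicle. It measured 10.5, 10.2, 14.6 and 13.8 FPKM with bleomycin, 13.6, 17.7, 17.4 and 17.2 with doxorubicin, and 7.18, 4.32, 5.62 and 4.37 with IL-1β. Again the drug libraries lay above all others, and the IL-1β and vehicle libraries overlapped.

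Stat2 rose 3.07-fold with bleomycin, to 12.3 ± 2.26 from 4.00 ± 0.867 FPKM (log2 difference 1.41 ± 0.16; adjusted p = 2.23e-06, limma). Doxorubicin brought it to 16.5 ± 1.96 FPKM, 4.12-fold (1.81 ± 0.16; adjusted p = 1.07e-07). The IL-1β mean of 5.37 ± 1.35 FPKM did not pass (0.34, interval 0.01 to 0.67; adjusted p = 0.0902), though it did without vehicle replicate 3 (0.45; adjusted p = 0.0315).

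Irf1, which activates genes of antigen processing and inflammation (chr11:53770014-53778374, plus strand), followed another order. Its levels were 12.1, 11.3, 9.94 and 11.7 FPKM in vehicle, 13.2, 13.2, 12.2 and 11.9 with bleomycin, 13.8, 13.5, 12.2 and 13.6 with doxorubicin, and 16.3, 18.2, 18.1 and 17.2 with IL-1β. The IL-1β libraries were all above the rest, the doxorubicin libraries all above vehicle by a small margin, and the bleomycin libraries overlapped vehicle.

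The Irf1 mean went from 11.3 ± 0.947 FPKM in vehicle to 17.5 ± 0.893 with IL-1β, 1.55-fold (log2 difference 0.59 ± 0.07; adjusted p = 2.11e-06, limma). It remained called, at 0.25 (adjusted p = 0.00524), when libraries were scaled to a common sum. Doxorubicin raised it 1.18-fold, to 13.3 ± 0.741 (0.22 ± 0.07; adjusted p = 0.012). Bleomycin gave 12.6 ± 0.677 (0.15, interval 0.01 to 0.29; adjusted p = 0.0747), and this passed only without vehicle replicate 1 (adjusted p = 0.0471).

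Irf2, known as the counterpart of Irf1 on shared elements (chr8:46739732-46847458, plus strand), was higher in all treated groups. Vehicle libraries gave 4.04, 3.40, 3.39 and 4.52 FPKM, bleomycin 5.20, 5.51, 6.16 and 5.68, doxorubicin 5.59, 5.14, 5.46 and 7.12, and IL-1β 5.27, 4.63, 6.64 and 4.62. No treated library reached down to the highest vehicle library, although the IL-1β group came close.

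The Irf2 mean of 3.84 ± 0.549 FPKM in vehicle compares with 5.64 ± 0.402 for bleomycin (log2 difference 0.46 ± 0.11; adjusted p = 0.00325, limma), 5.83 ± 0.883 for doxorubicin (0.49 ± 0.11; adjusted p = 0.00176) and 5.29 ± 0.950 for IL-1β (0.37 ± 0.11; adjusted p = 0.0135). The IL-1β call was lost without IL-1β replicate 3 (0.28; adjusted p = 0.0506) and under scaling to a common sum (0.08; adjusted p = 0.593). The treated groups did not differ from each other by the test in that fit.

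Irf3, the constitutive factor downstream of nucleic acid sensing (chr7:44997648-45002848, plus strand), was the most abundant IRF in every group on average. Its libraries spanned 19.6 to 22.5 FPKM in vehicle (mean 20.9 ± 1.21), 20.4 to 27.2 with bleomycin (24.5 ± 2.97), 21.5 to 24.5 with doxorubicin (22.9 ± 1.29) and 19.8 to 27.5 with IL-1β (23.3 ± 3.32). All groups overlapped. The log2 differences from vehicle were 0.21 (interval 0.01 to 0.42; adjusted p = 0.0777, limma), 0.13 (-0.07 to 0.33; adjusted p = 0.281) and 0.15 (-0.06 to 0.35; adjusted p = 0.242) in that order. The first passed without bleomycin replicate 1 (0.30; adjusted p = 0.016), and the last turned to -0.22 under scaling to a common sum.

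Irf5, a factor of Toll-like receptor signalling in myeloid cells (chr6:29526625-29541871, plus strand), was scarce throughout. Vehicle libraries gave 0.394, 0.596, 0.311 and 0.410 FPKM, bleomycin 0.966, 1.35, 0.554 and 1.29, doxorubicin 0.911, 0.912, 0.658 and 0.835, and IL-1β 1.02, 0.747, 0.874 and 1.11. Doxorubicin and IL-1β libraries were all above vehicle, and bleomycin replicate 3 lay inside the vehicle range.

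Mean Irf5 was 0.428 ± 0.120 FPKM in vehicle, 1.04 ± 0.364 with bleomycin, 0.829 ± 0.120 with doxorubicin and 0.939 ± 0.160 with IL-1β. It was called higher in all 3 (log2 differences 0.50, 0.36 and 0.44, each ± 0.12; adjusted p = 0.0032, 0.0232 and 0.00782, limma). The doxorubicin call was lost under quantile normalization (0.24; adjusted p = 0.117) and without vehicle replicate 3 (0.32; adjusted p = 0.0633) or doxorubicin replicate 1 or 2 (0.34; adjusted p = 0.0561 each). Only an estimated 14 to 83 fragments per library stand behind these values, and the gene shares 411 exonic bases with Tnpo3 (at most 27.2 FPKM) on the opposite strand. The libraries were stranded, but whether strand was used in counting is not given in the sources used here. Irf3, Irf7 and Stat3 share 45 to 88 exonic bases with genes on the opposite strand, and Irf1 shares 135.

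Irf8, a factor of macrophages, dendritic cells and B cells (chr8:120736358-120756694, plus strand), lay between 0 and 0.146 FPKM in all 16 libraries, an estimated 0 to 17 fragments. It was not tested, and no difference between groups was detectable at this depth.

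Stat3, the gp130 signal carrier (chr11:100885098-100939540, minus strand), was the most abundant member. It spanned 48.4 to 57.1 FPKM in vehicle (mean 52.6 ± 3.90), 50.8 to 55.6 with bleomycin (53.6 ± 2.09), 51.4 to 62.2 with doxorubicin (56.2 ± 4.53) and 54.4 to 64.5 with IL-1β (58.8 ± 4.20). These ranges overlapped throughout. Log2 differences from vehicle were 0.03 (interval -0.12 to 0.17; adjusted p = 0.774, limma), 0.09 (-0.05 to 0.24; adjusted p = 0.292) and 0.16 (0.01 to 0.30; adjusted p = 0.0761). The bleomycin difference is -0.04 after median-of-ratios scaling. The IL-1β value passed without vehicle replicate 1 (0.20; adjusted p = 0.0398) or IL-1β replicate 3 (0.19; adjusted p = 0.0432), and it was -0.21 (adjusted p = 0.0238) under scaling to a common sum, so its direction depends on that choice.

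**Figure D3:**
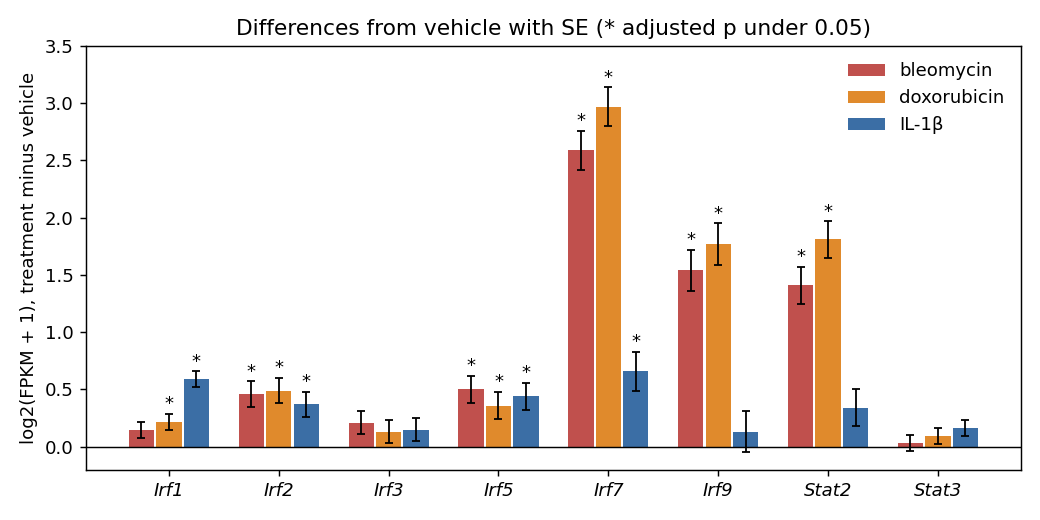
Difference from vehicle on the log2(FPKM + 1) scale (bars) with the standard error (lines) for the 8 tested members; asterisks mark an adjusted p under 0.05 in limma. The bars of Irf7, Irf9 and Stat2 reach 1.41 to 2.97 in the drug groups, and Irf1 has its highest bar, 0.59, with IL-1β.

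The drugs were then set against IL-1β directly. Of the 8 members, 3 were called higher with bleomycin than with IL-1β and 1 lower, where 27.6% of all tested genes were called higher and 25.2% lower. For doxorubicin the count was also 3 higher and 1 lower, against 25.1% and 29.2%. The higher members were Irf7, Irf9 and Stat2 in both, and the lower one was Irf1. Their libraries did not overlap between the groups compared, which adds nothing to the calls, since the share of all tested genes without overlap was not computed. The median log2 difference of the 8 was 0.08 and 0.05, beside 0.02 and -0.03 over all tested genes.

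Irf7 was 6.16-fold higher with bleomycin than with IL-1β (log2 difference 1.92 ± 0.17; adjusted p = 9.98e-08, limma) and 8.18-fold higher with doxorubicin (2.31 ± 0.17; adjusted p = 1.11e-08). Irf9 was 2.96-fold and 3.49-fold higher (1.40 and 1.64; adjusted p = 7.52e-06 and 1.23e-06), and Stat2 2.29-fold and 3.07-fold higher (1.07 and 1.47; adjusted p = 2.88e-05 and 7.91e-07). Irf1 was 1.39-fold higher with IL-1β than with bleomycin (-0.44 ± 0.07; adjusted p = 3.9e-05) and 1.32-fold higher than with doxorubicin (-0.37 ± 0.07; adjusted p = 0.000189). Scaling to a common sum kept the Irf7, Irf9 and Stat2 calls and ended those of Irf1 (-0.09 and -0.02; adjusted p = 0.289 and 0.836).

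Under that scaling 57.9% of all tested genes were called higher with bleomycin than with IL-1β and 53.4% with doxorubicin, with medians of 0.37 and 0.32, so the calls that follow show nothing particular to the members. Irf2 was then called higher with bleomycin and doxorubicin than with IL-1β (0.45 and 0.48; adjusted p = 0.00339 and 0.00212), as were Irf3 (0.45 and 0.36; adjusted p = 0.000557 and 0.00348) and Stat3 (0.25 and 0.31; adjusted p = 0.00871 and 0.00201). On the deposited scale none of these 3 passed.

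Between the drugs, 0 of 8 members were called in limma, where 4.18% of all tested genes were called higher with doxorubicin and 5.85% lower. At an unadjusted p under 0.05 there were 2, Irf7 and Stat2, both with the higher mean in doxorubicin. Their log2 differences were 0.38 (interval 0.02 to 0.74; adjusted p = 0.177) and 0.40 (0.07 to 0.74; adjusted p = 0.117). Irf9 differed by 0.23 (-0.15 to 0.62; adjusted p = 0.47). The intervals allow differences up to 0.74 on the log2 scale, so the drugs are not shown to act alike. The member median was 0.07, beside -0.04 over all tested genes.

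By their means, the groups came in the order vehicle, IL-1β, bleomycin, doxorubicin for Irf2, Irf7, Irf9 and Stat2. For Irf7 the steps from vehicle to IL-1β and from IL-1β to bleomycin passed the test, and for Irf9 and Stat2 the IL-1β to bleomycin step passed (adjusted p = 7.52e-06 and 2.88e-05, limma). For Irf2 it was the step from vehicle to IL-1β. For Irf1 the order was vehicle, bleomycin, doxorubicin, IL-1β, and its last step passed. For Irf5 (vehicle, doxorubicin, IL-1β, bleomycin) it was the first step. No step between neighbours passed for Irf3 or Stat3.

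The make-up of the IRF transcripts shifted with these changes. The 7 IRF members summed to 42.8 ± 3.74 FPKM in vehicle, 70.4 ± 6.50 with bleomycin, 75.4 ± 6.07 with doxorubicin and 54.7 ± 4.38 with IL-1β (SD, n = 4). These sums are on the deposited scale. There all FPKM summed to 521294 to 559190 in the IL-1β libraries and to 405159 to 423830 in the others, so the higher IL-1β sum depends on that scale. Irf3 supplied 48.9% of the sum in vehicle and 30.5% with doxorubicin. Irf9 supplied 13.6% in vehicle, 26.7% with bleomycin, 29.5% with doxorubicin and 11.7% with IL-1β. Irf7 went from 0.978% in vehicle to 10.9% with bleomycin and 13.4% with doxorubicin, against 2.29% with IL-1β. Irf1 supplied 26.4% in vehicle, 18.1% and 17.7% in the drug groups and 32.0% with IL-1β. These shares are descriptions and were not tested.

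**Figure D4:**
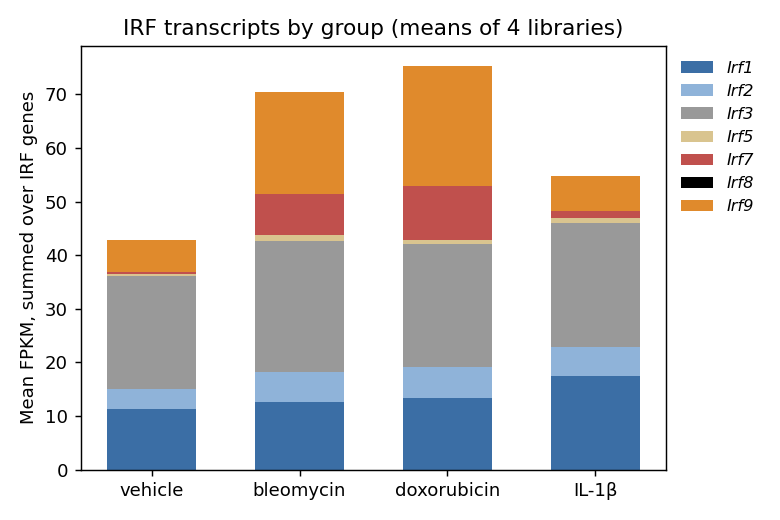
Mean FPKM of the 7 IRF members stacked by group (n = 4 libraries each). On the deposited scale the stacks reach 42.8 FPKM in vehicle, 70.4 with bleomycin, 75.4 with doxorubicin and 54.7 with IL-1β. The Irf9 and Irf7 segments are the ones that widen most in the drug groups.

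The genes whose pattern over the 16 libraries was most like that of a member were sought by Pearson's r on log2(FPKM + 1), given as a description, since libraries of a group cluster. For Irf7 they were Dtx3l (r = 0.982), Isg15 (0.981) and Gas6 (0.981), and for Irf9 Rtp4 (0.973), Isg15 (0.965) and Gda (0.963). For Stat2 they were Parp12 (0.965), Dmpk (0.964) and Oasl2 (0.964). Dtx3l, Isg15, Rtp4, Parp12 and Oasl2 are known interferon-induced genes. Irf1 lay nearest to Tnfrsf1b (0.966), a tumour necrosis factor receptor, Ptgr1 (0.964) and Mroh1 (0.961).

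The nearest genes of the remaining members were less close. Irf2 had r = 0.893 with Gm11127, Sqor and Rab13, and Irf5 0.879 with Ninl, 0.878 with Sdf2 and 0.867 with Slc25a20. Irf3 reached 0.805 with Coq8b and 0.780 with Fhod1 and Mks1, and Stat3 0.753 with Psmb10, 0.724 with Lime1 and 0.720 with Gm8615. Between members, r was 0.96 for Irf7 and Stat2, 0.94 for Irf7 and Irf9 and 0.92 for Irf9 and Stat2, against -0.06 for Irf1 and Irf7.

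Upstream of the members, transcripts of the interferons themselves were at the floor. None of 21 interferon ligand genes reached 1 FPKM in any library, 14 were at 0 in all 16, and the highest single value was 0.282 FPKM. Ifnb1, interferon beta, was listed at 0 in all vehicle and IL-1β libraries and reached at most 0.158 FPKM with bleomycin and 0.0795 with doxorubicin. At this depth no change in them was detectable.

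Of 5 tested interferon receptor genes, 3 were called higher in each comparison with vehicle: Ifnar2, Ifngr2 and Il10rb. After median-of-ratios scaling or quantile normalization the bleomycin count was 2. Under scaling to a common sum the IL-1β count was 3 higher and 1 lower, where 10.1% of all tested genes were called higher and 52.6% lower. On the deposited scale 27.9%, 25.4% and 24.5% of all tested genes were called higher and 19.0%, 22.8% and 18.4% lower with bleomycin, doxorubicin and IL-1β. These shares belong beside each list count here and below. Ifngr2, the second chain of the interferon gamma receptor, changed most, from 9.49 ± 0.386 FPKM to 14.6 ± 0.441 with bleomycin, 15.3 ± 1.56 with doxorubicin and 22.6 ± 0.744 with IL-1β (log2 differences 0.58, 0.63 and 1.17; adjusted p = 2.02e-06, 5.82e-07 and 3.76e-10, limma). Ifnar1, the first chain of the type I receptor, had 14.8 FPKM in vehicle and doxorubicin, 17.5 with bleomycin and 17.1 with IL-1β, and was not called in any of the 3.

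Among 4 JAK kinase genes, Jak1 and Tyk2 were called higher with each drug, though after quantile normalization only 1 of the 4 was called higher with doxorubicin. Jak1 rose from 34.2 ± 1.68 FPKM to 44.1 ± 0.806 with bleomycin (0.36; adjusted p = 0.000143, limma) and 48.2 ± 3.96 with doxorubicin (0.48; adjusted p = 6.81e-06). In IL-1β Jak1 was called higher (0.29; adjusted p = 0.000894) and Jak3 lower. Under scaling to a common sum 0 of the 4 were called higher with IL-1β and 3 lower, with Jak1 at -0.07 (adjusted p = 0.392). Of all tested genes 10.1% were called higher and 52.6% lower there. After median-of-ratios scaling or quantile normalization 1 of the 4 was also called lower with bleomycin.

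Kinases and adaptors that activate Irf3 and Irf7 were called higher in 5 of 10 tested with each drug, and in 4 with 1 lower in IL-1β. Over all tested genes 27.9%, 25.4% and 24.5% were called higher with bleomycin, doxorubicin and IL-1β. After median-of-ratios scaling 3, 4 and 3 of the list were called higher, where 23.2%, 24.6% and 21.8% of all tested genes were. Under scaling to a common sum the IL-1β count was 1 higher and 5 lower, where 10.1% of all tested genes were called higher and 52.6% lower. Ikbke, an IRF kinase known to be induced by NF-kB, had the largest change of the list in all 3: from 5.92 ± 0.465 FPKM to 8.55 ± 0.852 with bleomycin (0.46; adjusted p = 0.000368, limma), 11.3 ± 1.28 with doxorubicin (0.82; adjusted p = 9.68e-07) and 17.9 ± 1.31 with IL-1β (1.45; adjusted p = 1.13e-09).

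Target genes of the 3 routes were read next, from lists with several genes already known to change in these data. Some list genes passed the expression filter only through the groups where they are high, which favours calls there. Usp18 of the type I list, for example, was at most 0.419 FPKM in all vehicle and IL-1β libraries. Gbp3 of the Irf1 list was at most 0.688 FPKM in them. The tested genes are therefore not a neutral sample. Of 30 tested type I interferon (ISGF3) target genes, 29 were called higher with bleomycin, 30 with doxorubicin and 9 with IL-1β, and 0 were called lower. Their median log2 differences were 1.61, 2.06 and 0.15. Under scaling to a common sum the IL-1β count was 5 higher and 3 lower, where 10.1% of all tested genes were called higher and 52.6% lower. On the log2(FPKM + 1) scale, which compresses ratios of low genes, Isg15, a ubiquitin-like interferon target, had the largest difference with the drugs, from 2.12 ± 0.817 FPKM to 75.4 ± 20.1 and 96.8 ± 6.32 (log2 differences 4.61 and 5.01), and was 3.11 ± 0.935 with IL-1β (0.40; adjusted p = 0.136, limma). With IL-1β the largest on this scale was Lgals3bp, a secreted glycoprotein (1.09; 19.7 ± 3.41 to 43.4 ± 8.25 FPKM).

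Of 19 tested target genes of Irf1 and interferon gamma, 16 were called higher with bleomycin, 17 with doxorubicin and 17 with IL-1β, and 0 lower. The medians were 1.23, 1.41 and 0.72. On the log2(FPKM + 1) scale Igtp, an immunity-related GTPase, had the largest difference with the drugs, from 0.457 ± 0.109 FPKM to 4.93 ± 1.56 and 7.30 ± 0.316 (1.99 and 2.51). By the ratio of mean FPKM, Gbp3, a guanylate-binding protein of low level, changed more than Igtp, by 22.8-fold and 35.9-fold. With IL-1β it was Nos2, the inducible nitric oxide synthase, from 0.287 ± 0.323 to 144 ± 19.6 FPKM (6.84), which is also a known NF-kB target. Nos2 was not called with bleomycin (-0.25; adjusted p = 0.222) or doxorubicin (0.27; adjusted p = 0.19).

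On the Stat3 side, more interleukin-6 family genes were called with IL-1β than with either drug. Of 6 tested cytokine genes, 4 were called higher with IL-1β (2 under scaling to a common sum) and 1 with each drug. After quantile normalization 3 were called higher with IL-1β and 0 with either drug. The largest change with IL-1β was that of Il6, with 2.08 ± 0.928 FPKM in vehicle and 47.3 ± 3.00 with IL-1β (4.01; adjusted p = 5.37e-11, limma). Il6 was lower with bleomycin, at 0.364 ± 0.152 FPKM (-1.14; adjusted p = 0.000102), and 2.06 ± 0.811 with doxorubicin. Of 5 tested receptor genes, 4 were called higher with IL-1β and 1 with each drug. The IL-1β count was 3 after median-of-ratios scaling, 2 after quantile normalization and 1 under scaling to a common sum. Il6st, which encodes gp130, was not called with any treatment (87.4 ± 26.4 FPKM in vehicle).

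Of 20 tested target genes of Stat3, 5 were called higher and 7 lower with bleomycin, 8 higher and 3 lower with doxorubicin, and 11 higher and 1 lower with IL-1β, where scaling to a common sum gave 8 and 5. Over all tested genes the shares called higher and lower were 27.9% and 19.0%, 25.4% and 22.8%, and 24.5% and 18.4%. With IL-1β under scaling to a common sum they were 10.1% and 52.6%. Saa3, serum amyloid A3, was the gene with the largest change in each: 156 ± 71.2 FPKM in vehicle, 50.6 ± 15.8 with bleomycin (-1.55), 1543 ± 790 with doxorubicin (3.27) and 70952 ± 7312 with IL-1β (8.92). Whether Stat3 took part in the changes of these genes was not tested. Socs3, the feedback inhibitor that Stat3 induces, fell from 37.8 ± 2.10 FPKM to 26.6 ± 1.32 with bleomycin (-0.49; adjusted p = 0.000739, limma) and to 30.2 ± 4.76 with doxorubicin (-0.33; adjusted p = 0.0122), and was 40.0 ± 4.99 with IL-1β (0.07; adjusted p = 0.59).

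Feedback inhibitors and cofactors of the families were called higher in 9, 8 and 4 of 20 tested and lower in 2, 3 and 4, for bleomycin, doxorubicin and IL-1β. The all-gene shares given for the Stat3 targets apply here too. Under scaling to a common sum the IL-1β count was 3 higher and 13 lower, where 52.6% of all tested genes were called lower. Usp18, which blocks the type I interferon receptor and is itself an ISGF3 target, had the largest change with the drugs, from 0.195 ± 0.160 FPKM to 10.0 ± 2.79 and 14.2 ± 2.72 (3.18 and 3.66), and was 0.316 ± 0.123 with IL-1β. With IL-1β the largest difference on the log2(FPKM + 1) scale was that of Ptpn2, a phosphatase of JAKs and STATs, from 34.1 ± 4.20 to 70.3 ± 1.56 FPKM (1.03; adjusted p = 1.66e-08, limma). Irf2bp2, a corepressor first found with Irf2, was called higher in all 3 (0.42, 0.30 and 0.34).

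**Figure D5:**
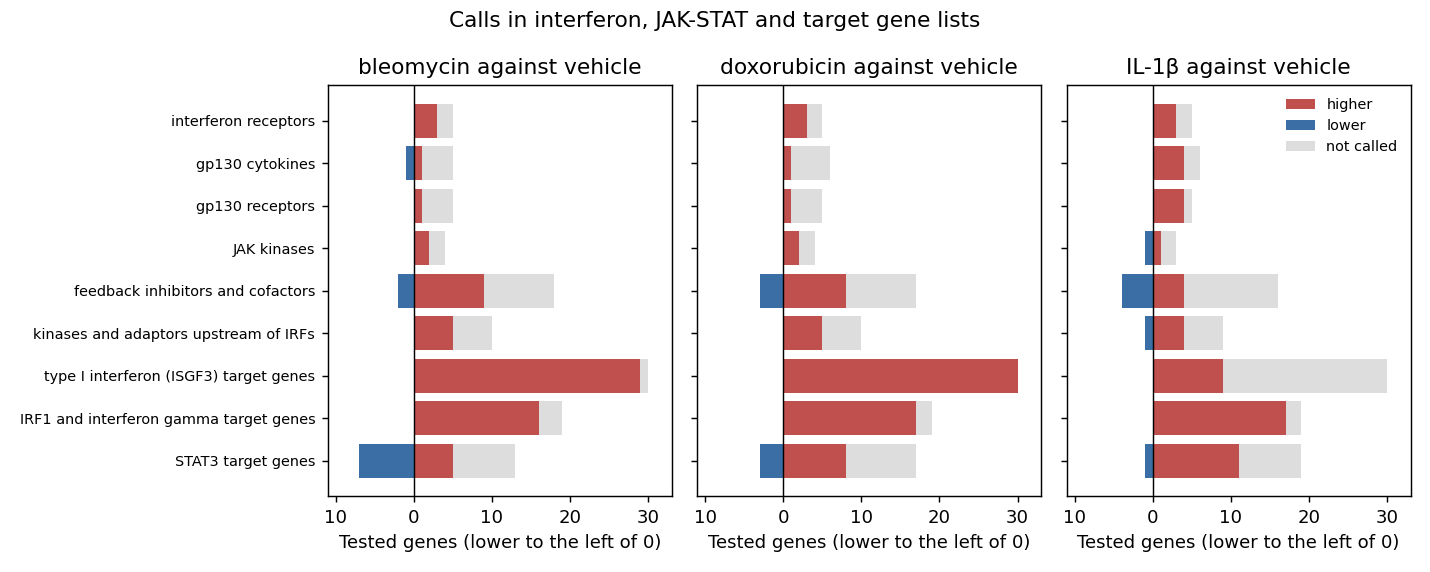
Number of tested genes called higher (red, right of 0), not called (grey, right of red) and called lower (blue, left of 0) against vehicle in 9 gene lists, 1 panel per treatment, at an adjusted p under 0.05 in limma. The type I interferon target bar is red for 29 and 30 of 30 genes in the drug panels and for 9 in the IL-1β panel (5 higher and 3 lower after scaling to a common sum). Some of these genes passed the expression filter only through the drug libraries.

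Markers of other cells that express these factors were read beside the members. Of 20 leukocyte markers, 6 reached 1 FPKM in some library, and the summed level was 11.2 to 13.3 FPKM in vehicle, 18.3 to 20 with bleomycin, 22 to 26.7 with doxorubicin and 31.8 to 36.9 with IL-1β. Of 5 tested, 3 were called higher and 1 lower with each drug, and 3 higher and 2 lower with IL-1β. Cd68, Cd14 and Lyz2, which other cells can also express, made up most of it. Lyz2 was 3.33 ± 0.768 FPKM in vehicle, 6.10 ± 0.914 with bleomycin, 10.9 ± 1.03 with doxorubicin and 6.66 ± 0.724 with IL-1β. Aif1, a marker of macrophages too low to be tested, was 0.175 ± 0.152, 0.685 ± 0.331, 1.12 ± 0.229 and 0.800 ± 0.120 FPKM in the same groups, and so was also higher in the mean of each drug group. Csf1r, the receptor of macrophage colony-stimulating factor, was 0.197 ± 0.0710, 0.139 ± 0.0825, 0.551 ± 0.0869 and 0.698 ± 0.199 FPKM. Other markers had lower means in the treated groups. Laptm5 was 1.83 ± 0.189, 0.974 ± 0.184, 1.20 ± 0.240 and 1.29 ± 0.166 FPKM in the same groups, and Mrc1 1.06 ± 0.136, 0.936 ± 0.170, 1.04 ± 0.111 and 0.543 ± 0.0488. Ptprc, Adgre1, Itgam, Fcgr1 and Spi1 were at or under 0.0825 FPKM in every library. Of 4 plasmacytoid dendritic cell markers, Siglech was at 0 in all libraries, and Bst2, which carried the rise of that list's sum from 21.4 to 24.3 FPKM in vehicle to 70.1 to 122 in the drug groups, is also on the interferon target list. Both tested markers, Bst2 and Tcf4, were called higher with each drug, Tcf4 from 16.6 ± 1.51 FPKM to 21.6 ± 2.97 and 21.6 ± 2.01 (0.35 and 0.36; adjusted p = 0.036 and 0.031, limma). Ly6d, which was not tested, was 0.0384 ± 0.0447 FPKM in vehicle, 0.616 ± 0.248 with bleomycin and 0.669 ± 0.319 with doxorubicin. None of 4 endothelial markers reached 1 FPKM. Synovial fibroblast markers summed to 77.9 to 115 FPKM in vehicle, 136 to 184 with bleomycin, 187 to 255 with doxorubicin and 127 to 157 with IL-1β. Of 5 tested, 3 were called higher with bleomycin and 4 with doxorubicin, and 2 were called higher and 2 lower with IL-1β. Prg4, which articular chondrocytes also make, had the largest log2 difference with the drugs (1.36 and 2.16) and Pdpn with IL-1β (1.66). Cd55 rose from 2.87 ± 0.363 FPKM to 8.80 ± 0.549 and 13.6 ± 1.03 with the drugs, 3.06-fold and 4.75-fold, and was 2.90 ± 0.423 with IL-1β. Prg4, Cd55 and Pdpn thus had higher means in both drug groups, as did Irf7, Irf9 and Stat2. Pdgfra was also slightly higher in both means, Thy1 was higher with doxorubicin only and Dpp4 with bleomycin only. Mean Pdgfra was 31.7 FPKM in vehicle, 33.7 with bleomycin and 32.6 with doxorubicin. In the same order Thy1 was 14.5, 14.2 and 22.4 FPKM, and Dpp4 0.762, 0.812 and 0.633. Prg4 and Pdpn also had higher means with IL-1β (38.1 and 74.6 FPKM, against 21.1 and 23.8 in vehicle), where Irf9 and Stat2 were not called. The part of other cells in the members' differences was not tested.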

How the data were processed

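Poly(A) RNA from 16 libraries was sequenced with a stranded kit, per the labels' protocols. The submitters' processing notes name Trimmomatic, STAR and the build GRCm38. Their versions, and the tool and annotation behind the expression values, are not given in the sources used here. As deposited by the authors, there was 1 table of FPKM per library. Steps between low values gave the estimated depth; too few values came out as whole fragments (64.1% to 68.2% within a tolerance of 0.1) for counts to be recovered, so no count test was run.

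Values were analysed as log2(FPKM + 1) without further scaling. The 12976 genes that reached 1 FPKM in 4 or more of the 16 libraries were fitted together, in 4 groups with 12 residual degrees of freedom, with limma 3.58.1 in R 4.3.3 (mean-variance trend), and adjusted by Benjamini-Hochberg within each of 6 comparisons. The fit was tested on simulated data. Coordinates came from GENCODE M21 (GRCm38), and promoter windows from RefSeq (GRCm38.p6). Tables were handled in pandas 2.3.3 (Python 3.11.15) and plots drawn in matplotlib 3.10.9. The text names all members, the called gene of largest log2 difference per list and comparison with vehicle, ligands, receptors and kinases that name a route, and the 3 nearest patterns per member. Socs3, Irf2bp2, Gbp3 and single marker genes, and the drug values of Nos2 and IL-1β values of Isg15 and Usp18, were named after their values were seen. List counts under other scalings were added after seeing the data. A list of further family genes is not reported here. The members and lists were chosen with earlier results of these data known. Alternatives were 2 pseudocounts, 2 filters, 3 scalings, 2 spread estimates, a replicate block and leaving out each library.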

Additional observations from a re-analysis of the deposited data

Results flagged for a closer look

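In 36 member and group combinations of 4 libraries, 4 had a library whose gap to the nearest other took most of the group's range; chance alone gives about 1 in 20. Irf7 in vehicle replicate 2 was low at 0.0679 FPKM, where the other 3 vehicle libraries lay between 0.517 and 0.604. In the same library Irf8 was high at 0.146 FPKM. In doxorubicin, Irf1 was low in replicate 3 at 12.2 FPKM, and Stat2 was low in replicate 1 at 13.6 FPKM, still above every vehicle and IL-1β library. Irf1, Irf7 and Stat2 remained called between doxorubicin and vehicle without the library in question.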

How the results depend on the processing

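The number of members called stayed within 1.5 times of the main count under every alternative run (4 to 6 for bleomycin, 5 to 6 for doxorubicin and 3 to 5 for IL-1β against vehicle, 0 between the drugs, 4 to 6 for either drug against IL-1β). The 23 called differences kept direction and call in 403 recalculations and lost only the call in 8. Uncalled values turned sign in 20. With libraries scaled to a common sum, the IL-1β against vehicle differences of Irf3, Irf9 and Stat3 were -0.22, -0.20 and -0.21, bleomycin against IL-1β was 0.25 for Stat3, and doxorubicin against IL-1β was 0.36 for Irf3, 0.13 for Irf5 and 0.31 for Stat3. Quantile normalization gave 0.04 for Irf3 and 0.06 for Stat3 in doxorubicin against IL-1β, and median-of-ratios scaling gave 0.01 for Irf3 there and -0.04 for Stat3 in bleomycin against vehicle. Leaving out each library in turn gave ranges that crossed 0 for 6 uncalled values: Stat3 in bleomycin against vehicle (-0.01 to 0.07; the low end without vehicle replicate 2), Irf9 in IL-1β against vehicle (-0.01 to 0.27; same library), Irf2 between the drugs (-0.05 to 0.08; without doxorubicin replicate 4), Irf3 (-0.00 to 0.15; without IL-1β replicate 4) and Irf5 (-0.02 to 0.18; below 0 without bleomycin replicate 2 or 4) in bleomycin against IL-1β, and Irf3 in doxorubicin against IL-1β (-0.09 to 0.06; above 0 without doxorubicin replicate 1 or IL-1β replicate 1 or 3). The cause was not tested.

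With the replicate number as a block (replicate block) the counts were 5, 6, 4, 0, 4 and 4, as without it. Same-numbered libraries of different groups had a median correlation of deviations of 0.0518 (24 pairs, -0.0233 to 0.214, 6 over 0.1), and differently numbered ones of -0.0233 (72 pairs, -0.195 to 0.099, 0 over 0.1). Same-numbered libraries were thus more alike in the median, and only such pairs passed 0.1. The labels do not say what the number marks, so the main fit left it out. Whether it pairs samples was not settled, and the counts with the block are those given above. Over all tested genes the share of higher among called genes moved by over 10 points from 57.1% to 44.0% (quantile) and 16.1% (common sum) for IL-1β against vehicle, from 41.7% to 61.3% (median-of-ratios) and 53.4% (quantile) between the drugs, from 59.5% to 49.0% (quantile) for bleomycin against vehicle, and, with a common sum, from 52.2% to 86.3% and from 46.2% to 82.0% for bleomycin and doxorubicin against IL-1β. Depth limits Irf5, Irf8 and vehicle Irf7, which rest on few fragments.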
